A study of Homo sapiens with 16 samples.

Results

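The genes described here were 40 targets and regulators of the transcription factor NF-kB. They were taken by symbol from a list, and all 40 were found among the 18332 genes in the deposited expression table. The list was chosen with earlier results of these data known, so its shares beside those of all genes describe the list only. They comprised 13 cytokines or chemokines, 5 NF-kB subunits, 8 IkB proteins or feedback regulators, 8 signaling adaptors, kinases or survival factors, and 6 genes for adhesion, protease, cell surface or prostaglandin functions. They were followed by RNA-Seq in the established human breast cancer lines MDA-MB-231 and, for comparison, MDA-MB-468, both listed as ER negative. Each line was kept in glucose at 5 mM (low glucose, the control) or 25 mM (high glucose, the model of hyperglycemia) for 48 hours in T25 flasks, with 4 replicates in each of the 4 groups. The study's methods describe medium without serum, cells that were first adapted to low glucose, and maintenance of MDA-MB-231 in DMEM but of MDA-MB-468 in RPMI. The methods mention a mannitol control for osmolarity in some experiments, and the labels of these samples name none, so glucose and osmolarity cannot be told apart here. Nothing in the labels says that replicates came from separate cultures, so the p-values measure only the spread between these samples, which may be technical.

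NF-kB is a family of dimeric transcription factors built from RELA, RELB, REL and the processed products of NFKB1 and NFKB2. In resting cells IkB proteins such as the one encoded by NFKBIA hold the dimers in the cytoplasm, and the IkB kinase complex releases them after signals from tumor necrosis factor, interleukin-1 or Toll-like receptors. A second, noncanonical route runs through NF-kB-inducing kinase and yields dimers of RELB with the NFKB2 product. The targets include chemokines, adhesion molecules and survival factors, and also the inhibitors that end the signal. In breast cancer cells without the estrogen receptor the pathway is known for driving inflammatory and invasive gene expression.

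Expression is given as normalized reads, the deposited unit, in which each count was scaled by the size factor of its library, and the libraries held between 14094597 and 24425916 reads. Several defining markers separated the lines in the way the labels say. VIM, a mesenchymal filament gene, had 96228 ± 2742 (SD, n = 4) normalized reads in low-glucose MDA-MB-231 and 21.5 ± 5.48 in low-glucose MDA-MB-468, while the basal keratin gene KRT5 had 1.13 ± 0.827 and 15150.1 ± 545, and the epithelial cadherin gene CDH1 had 5.51 and 2007 ± 54.2. SPARC, listed as a marker of MDA-MB-231, was absent from that pattern, with at most 8.22 normalized reads in any MDA-MB-231 library, and CD44 was not lower in MDA-MB-468. The estrogen receptor gene ESR1 had 1.31 ± 1.01 normalized reads in low-glucose MDA-MB-231 and 57.9 ± 7.87 in low-glucose MDA-MB-468. Of 6 leukocyte markers 4 were found. Their summed level was 158 to 207 normalized reads in low-glucose and 286 to 344 in high-glucose MDA-MB-468, with CD14 at 94.2 ± 15.2 and 208 ± 24.5 and CSF1R at 69.4 ± 6.10 and 97.9 ± 17.3, while the defining marker PTPRC was at 8.77 ± 2.34 and 3.12 ± 2.11. Of 4 endothelial markers 3 were found, with a sum of 553 to 586 in low-glucose and 447 to 508 in high-glucose MDA-MB-468 that was nearly all KDR, and CDH5 reached at most 2.37. Of the fibroblast markers all 4 were found, with a sum of 99.5 to 114 in low-glucose and 95.04 to 101 in high-glucose MDA-MB-468, and DCN was at 0 in all 8 of these libraries. In MDA-MB-231 the leukocyte sum was 54.3 to 71.4 in low and 62.3 to 85.6 in high glucose, the endothelial sum 211 to 281 and 233 to 274, and the fibroblast sum 257 to 279 and 312 to 325. The part of these markers in the results below was not tested.

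The promoter sequences of several of these genes are shown because the genes share a binding motif and yet moved in different directions. A promoter window, from 250 bases before to 50 bases after the gene's start in RefSeq annotation on GRCh38.p14, was found for 34 of the 40 genes. The kappa B consensus decamer, a 10-base pattern bound by NF-kB dimers, was searched on both strands. It was present in 14 of the 34 windows (41.2%), against 3956 of 35116 windows in all (11.3%) and 1549 of 11942 windows of genes tested here (13.0%). By role it was present in 5 of 10 cytokine windows, 2 of 4 subunit windows, 4 of 7 windows of IkB or feedback genes, 2 of 7 windows of adaptors and survival factors, and 1 of 6 windows of the adhesion and protease group. A match is a description of letters and not evidence of binding. The windows are read 5′ to 3′ on the strand of the gene, capitals mark the decamer or the merged stretch of overlapping decamers, and the coordinates are 1-based.

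The first sequences belong to the neighboring chemokine genes CXCL1 (plus strand, chr4:73869289-73869349), CXCL2 (minus strand, chr4:74099238-74099298) and CXCL3 (minus strand, chr4:74038733-74038793), in which the same stretch lies 79 to 69, 78 to 68 and 79 to 69 bases before the start.
CXCL1: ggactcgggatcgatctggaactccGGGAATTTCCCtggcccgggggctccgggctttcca
CXCL2: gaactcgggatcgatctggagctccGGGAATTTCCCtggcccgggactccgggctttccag
CXCL3: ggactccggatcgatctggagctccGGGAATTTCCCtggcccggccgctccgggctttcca

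The next sequences are from genes that were lower in high-glucose MDA-MB-468. BIRC3 holds the decamer at 199 to 190 and 135 to 126 bases before its start (plus strand, chr11:102317260-102317319 and chr11:102317324-102317383). TNFAIP3 holds a pair of them between 67 and 46 bases before its start (plus strand, chr6:137867167-137867238), NFKBIA holds 1 at 81 to 72 bases (minus strand, chr14:35404796-35404855), and REL holds an overlapping pair at 47 to 37 bases (plus strand, chr2:60881502-60881562).
BIRC3, distal: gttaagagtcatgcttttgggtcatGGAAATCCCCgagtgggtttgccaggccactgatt
BIRC3, proximal: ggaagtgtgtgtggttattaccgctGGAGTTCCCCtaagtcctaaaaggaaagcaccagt
TNFAIP3: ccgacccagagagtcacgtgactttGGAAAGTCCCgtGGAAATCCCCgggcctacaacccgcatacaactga
NFKBIA: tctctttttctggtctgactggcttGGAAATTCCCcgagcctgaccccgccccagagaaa
REL: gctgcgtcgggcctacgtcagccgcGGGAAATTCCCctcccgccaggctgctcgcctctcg

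The last sequences are from the 4 genes with the decamer that were higher in high-glucose MDA-MB-468. They are NFKB1 (plus strand, chr4:102501285-102501344, 49 to 40 bases before the start), NFKBIZ (plus strand, chr3:101827742-101827801, 223 to 214 bases), SDC4 (minus strand, chr20:45348487-45348546, 97 to 88 bases) and MAP3K8 (plus strand, chr10:30433967-30434020, 29 to 20 bases).
NFKB1: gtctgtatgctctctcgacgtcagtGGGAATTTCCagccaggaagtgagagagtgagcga
NFKBIZ: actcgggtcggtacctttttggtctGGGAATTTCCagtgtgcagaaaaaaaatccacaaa
SDC4: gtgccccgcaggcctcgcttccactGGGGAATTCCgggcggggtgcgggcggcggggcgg
MAP3K8: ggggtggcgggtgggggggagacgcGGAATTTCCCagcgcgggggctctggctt

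The lines expressed these genes at very different levels before any change of glucose. On a scale per transcript length (TPM), the early response gene IER3 was the highest of the 40 in both lines under low glucose, at 849.9 ± 10.1 TPM in MDA-MB-231 against 346 ± 4.84 in MDA-MB-468 (SD, n = 4). In MDA-MB-231 it was followed by the protease gene PLAU at 319 ± 6.75 TPM, the macrophage growth factor gene CSF1 at 298 ± 14.0 and the feedback gene TNIP1 at 243 ± 8.30, and PLAU and CSF1 differed by little more than their SDs. In MDA-MB-468 the order ran through RELA at 125 ± 2.36 TPM, TNIP1 at 113 ± 3.64, TNFAIP2 at 103 ± 4.24, ICAM1 at 93.2 ± 2.50 and SDC4 at 90.0 ± 2.37, the last pair being within their spread. IL1B, CCL20, CCL2 and TNF took the last ranks in MDA-MB-231, at 0.298, 0.136, 0.0528 and 0.0204 TPM.

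**Figure D1:**
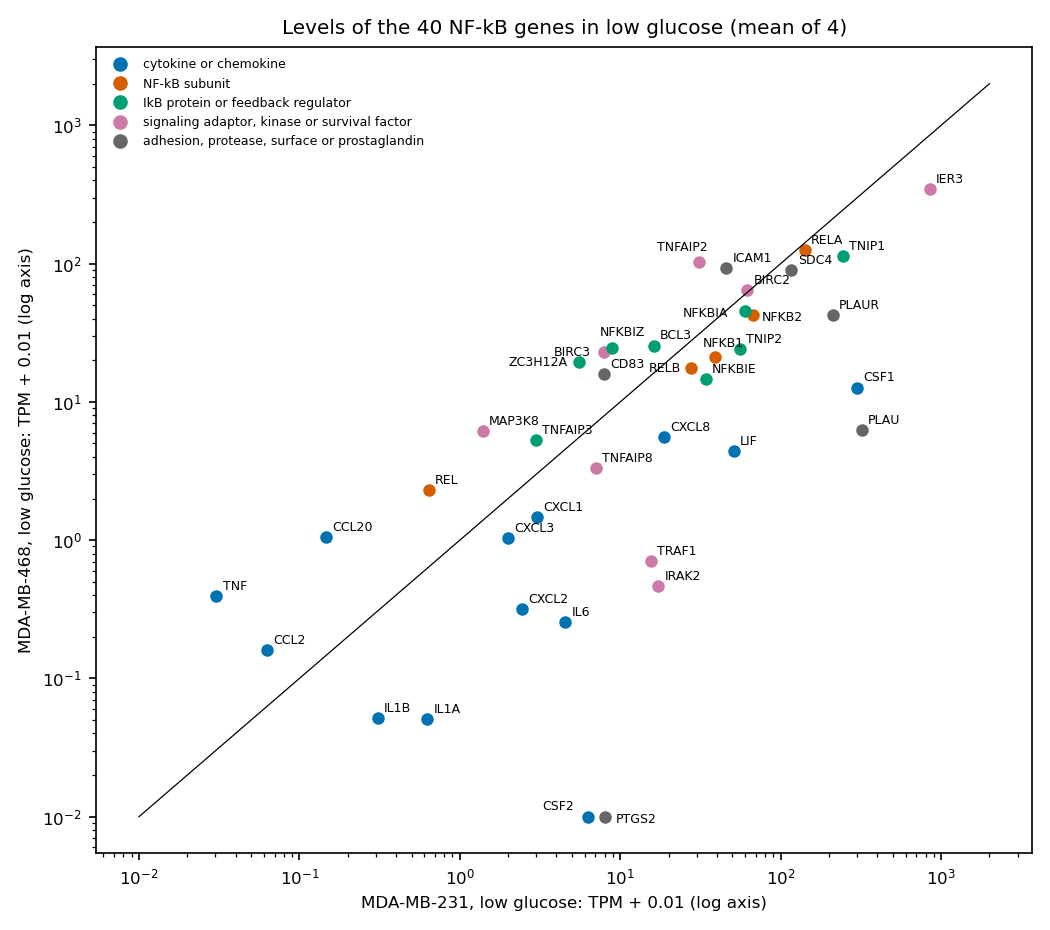
Mean TPM of each of the 40 NF-kB genes in low glucose, with MDA-MB-231 on the horizontal and MDA-MB-468 on the vertical log axis (0.01 added), points colored by role and the line marking equal levels. CSF1, PLAU, LIF, IRAK2 and TRAF1 lie far below the line, and CSF2 and PTGS2 sit at the bottom because they had no reads in MDA-MB-468.

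In low glucose, 35 of the 36 genes that could be tested differed between the lines at a limma adjusted p under 0.05, the threshold used throughout, against 85.4% of all 17115 genes tested. Of these, 25 were lower in MDA-MB-468 (background 40.4%) and 10 were higher (background 45%), and the 4 values of the lines did not overlap for 35 of them (background 80.5%). The median log2 difference, MDA-MB-468 minus MDA-MB-231, was -1.02 over the tested NF-kB genes and 0.08 over all genes tested. CXCL2, IL6, IL1A, CSF2 and PTGS2 reached the expression minimum in MDA-MB-231 alone, so their lower level in MDA-MB-468 was built into their being tested. They are included in these counts and in the median. Line and maintenance medium cannot be told apart in this comparison, and each line is a single line.

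All 9 cytokine genes tested were lower in MDA-MB-468, but CXCL2, IL6, IL1A and CSF2 reached the expression minimum in MDA-MB-231 alone. Their entry already required a high value there. The untested CCL20, TNF and CCL2 had higher mean TPM in low-glucose MDA-MB-468 (1.04, 0.386 and 0.150) than in low-glucose MDA-MB-231 (0.136, 0.0204 and 0.0528). IL1B went the other way (0.0417 against 0.298), and all were too low to be tested. PTGS2, which encodes the inducible enzyme of prostaglandin synthesis, had 248, 270.1, 234 and 277 normalized reads in low-glucose MDA-MB-231 and no read in any of the 8 MDA-MB-468 libraries. Against a floor of 3 reads per library it was at least 93.4-fold lower in low-glucose MDA-MB-468. CSF2, the granulocyte-macrophage growth factor gene, had 35.7, 31.3, 40.2 and 32.9 normalized reads against 0 in every MDA-MB-468 library, at least 12.7-fold lower. PLAU, encoding urokinase, was lower by 5.74 on the log2 scale (SE 0.05, adjusted p 4.04e-22 by limma), and the receptor-proximal kinase gene IRAK2 had a log2 difference of -5.20 (SE 0.17, adjusted p 6.65e-15 by limma). MAP3K8, a kinase gene upstream of ERK, was higher in MDA-MB-468 by 2.04 (SE 0.16, adjusted p 2.41e-09 by limma), REL by 1.80 (SE 0.20, adjusted p 2.4e-07 by limma) and the RNA-degrading regulator ZC3H12A by 1.73 (SE 0.11, adjusted p 1.48e-10 by limma). BIRC2, an inhibitor of apoptosis gene, was the gene without a call, with a log2 difference of -0.02 and a 95% interval from -0.11 to 0.07. IL6 had 35.7, 32.3, 60.3 and 17.5 normalized reads in low-glucose MDA-MB-231 and 3.95, 0, 3.50 and 0 in low-glucose MDA-MB-468, with no overlap between the lines (log2 difference -3.98, SE 0.51, adjusted p 1.06e-06 by limma, from -4.54 to -2.55 over the alternatives).

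In high glucose 18 of the 40 NF-kB genes fell and 5 rose in MDA-MB-468, while 4 fell and 5 rose in MDA-MB-231. In MDA-MB-468, 31 of the 40 could be tested and 23 passed the threshold (background 47.6% of 15757 genes). Of these, 18 were lower in high glucose (background 22.7%) and 5 were higher (background 24.9%). Among the 31 tested, the 4 values of each group did not overlap for 22 (background 42.5%). The median log2 fold change of the tested NF-kB genes was -0.26, against 0.00 over all genes tested. Because the list was chosen with earlier results of these data known, these differences from the background describe the list only. CXCL1, CXCL3 and IRAK2 reached the expression minimum in low glucose alone, so their presence among the tested genes already required a high value there. Without these 3 genes 15 of 28 tested were lower and 5 were higher, and the median log2 fold change was -0.24. Bulk RNA does not tell fewer cells of a kind from less RNA per cell.

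In MDA-MB-231, 36 of the 40 could be tested and 9 passed the threshold (background 15.1% of 14884 genes). Of these, 5 were higher in high glucose (background 5.71%) and 4 were lower (background 9.37%). Among the 36 tested, the values of the groups did not overlap for 13 (background 18.7%). The median log2 fold change was 0.00 over the tested NF-kB genes and over all genes, so this line showed no common direction. CXCL3 reached the expression minimum in low glucose alone, and without it 8 of 35 tested passed the threshold, 5 higher and 3 lower. Among all genes called in MDA-MB-231 the share that was higher in high glucose was 37.9%, and quantile normalization moved it to 48.0%, with 6 NF-kB genes then higher and 4 lower.

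**Figure D2:**
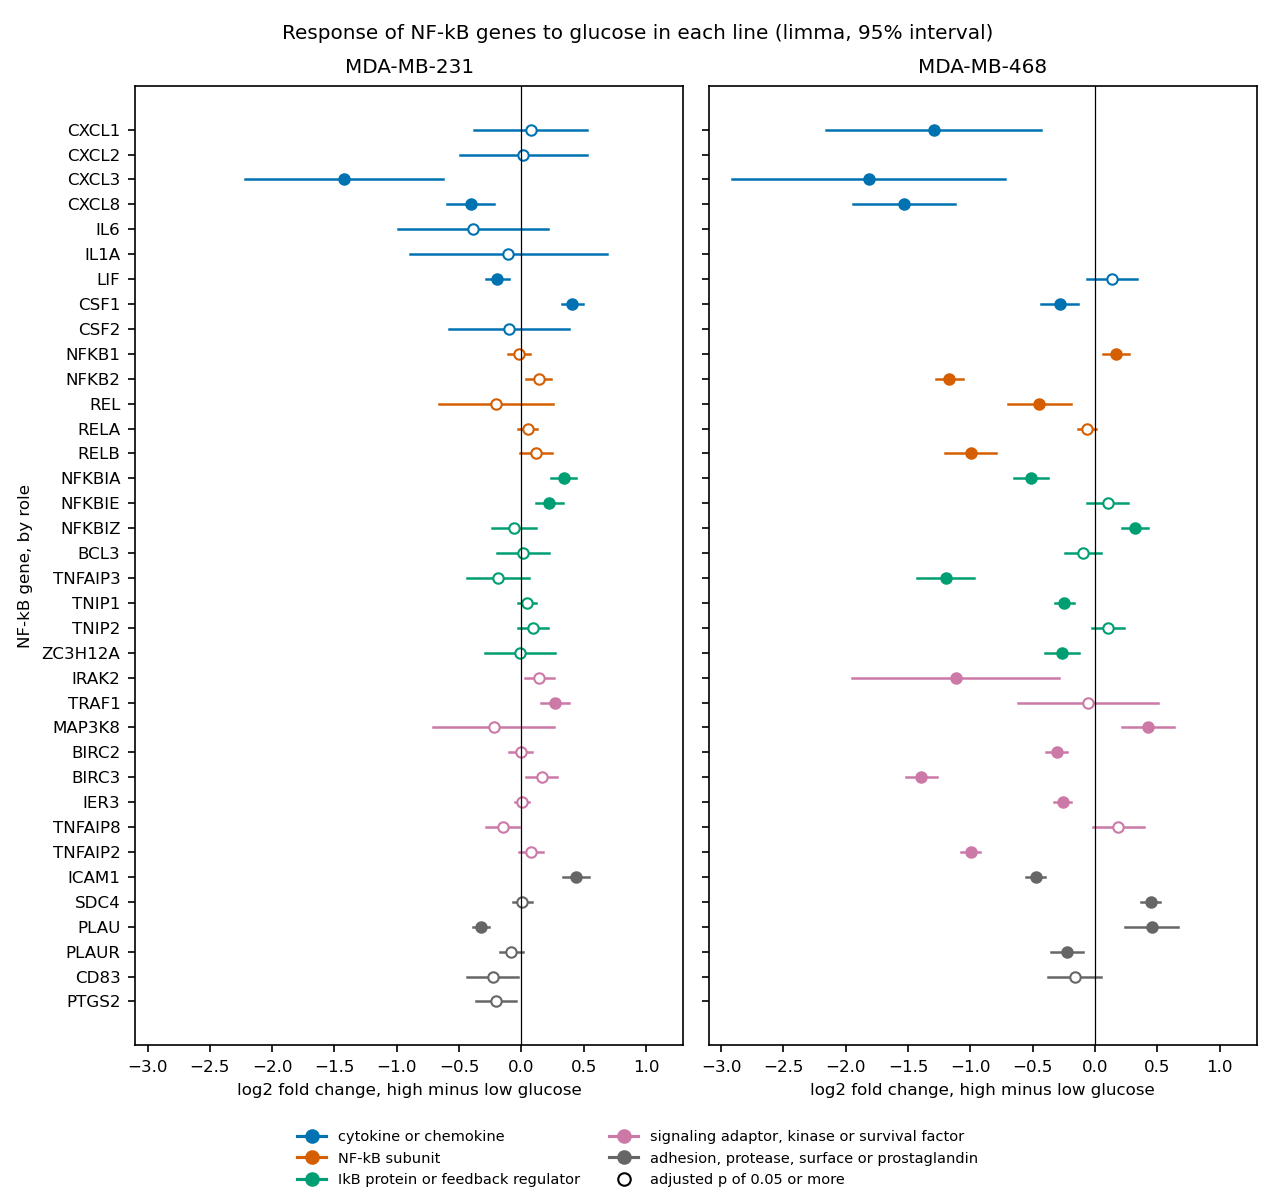
Log2 fold change of each tested NF-kB gene, high minus low glucose, with its 95% interval from limma, in MDA-MB-231 (left) and MDA-MB-468 (right), ordered and colored by role, filled where the adjusted p was under 0.05. In MDA-MB-468 18 filled points lie left of 0 and 5 lie right of it, while most points of MDA-MB-231 are open and close to 0. CXCL3 in both lines, and CXCL1 and IRAK2 in MDA-MB-468, reached the expression minimum in low glucose alone.

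**Figure D3:**
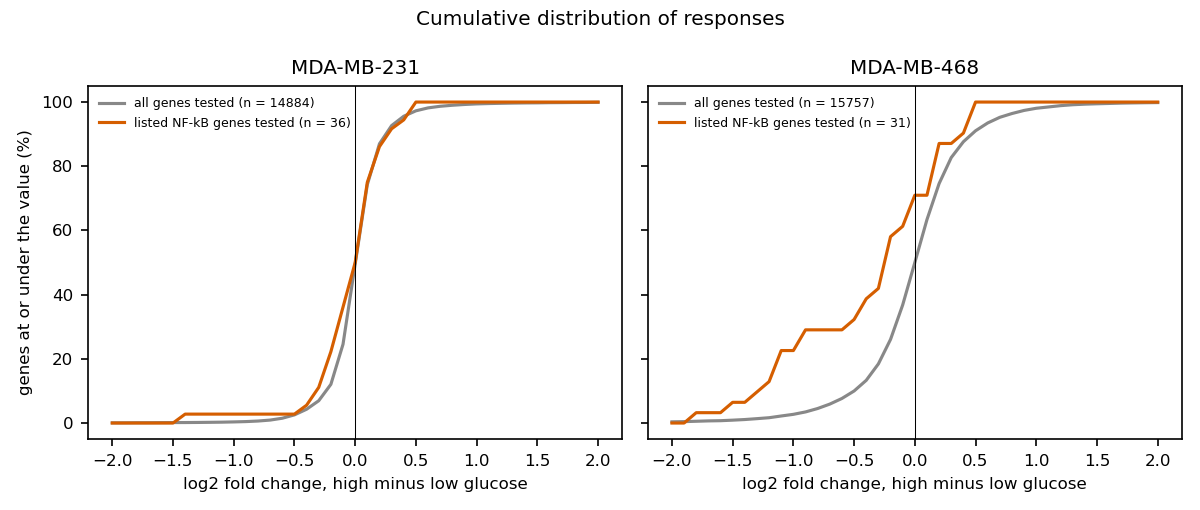
Percentage of genes with a log2 fold change (high minus low glucose) at or under the value on the horizontal axis, for the tested NF-kB genes and for all genes tested in each line. The curves lie close together in MDA-MB-231, whereas in MDA-MB-468 the curve of the NF-kB genes is shifted toward lower values.

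Among the cytokine and chemokine genes, 4 of 5 tested fell in MDA-MB-468 and none rose, and in MDA-MB-231 3 of 9 fell and 1 rose. Over all genes tested, 22.7% fell and 24.9% rose in MDA-MB-468, and 9.37% fell and 5.71% rose in MDA-MB-231. With so few genes in a role, the counts by role here and below describe the list only. Without the genes that reached the expression minimum in low glucose alone, which could enter only with a high value there, 2 of 3 fell in MDA-MB-468, and 2 of 8 fell and 1 rose in MDA-MB-231. CXCL8 (ENSG00000169429, chromosome 4, 74606236 to 74609433 on GRCh37), which encodes a neutrophil attractant, fell in both lines. In MDA-MB-468 it had 68.8, 69.7, 54.3 and 53.0 normalized reads in low glucose and 26.2, 19.7, 16.02 and 21.1 in high glucose. Every low-glucose library was above every high-glucose library, with a log2 fold change of -1.53 (SE 0.19, adjusted p 6.52e-06 by limma). In MDA-MB-231 it had 204, 246, 203 and 227 normalized reads in low glucose and 170.3, 171, 175 and 146 in high glucose, again without overlap (log2 fold change -0.41, SE 0.09, adjusted p 0.00428 by limma). A joint fit of all 16 libraries did not call the MDA-MB-231 change (adjusted p 0.0643 by limma).

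CSF1 (ENSG00000184371, chromosome 1, 110452864 to 110473614 on GRCh37) responded in opposite directions. In MDA-MB-231 it rose from 8466, 8504, 9033 and 7885 normalized reads to 11657, 10742, 10748 and 11825, and in MDA-MB-468 it fell from 350.3, 303, 358 and 353 to 270.3, 264, 289.6 and 296. The glucose groups did not overlap in either line, with log2 fold changes of 0.41 (SE 0.04, adjusted p 1.92e-06 by limma) and -0.28 (SE 0.07, adjusted p 0.00317 by limma). LIF, encoding leukemia inhibitory factor, fell in MDA-MB-231 from 1453, 1421, 1429 and 1296 to 1259, 1148, 1234 and 1257 normalized reads. Its lowest low-glucose library was above its highest high-glucose library (log2 fold change -0.19, SE 0.05, adjusted p 0.00739 by limma), and in MDA-MB-468 its log2 fold change was 0.14 (95% interval -0.07 to 0.34).

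The CXCL1, CXCL2 and CXCL3 genes, whose promoters carry the same capital stretch above, encode closely similar neutrophil attractants, and reads may be split among these near-identical paralogs. CXCL1 had 8.70, 15.5, 10.5 and 11.7 normalized reads in low-glucose and 1.94, 4.37, 5.72 and 5.06 in high-glucose MDA-MB-468, without overlap (log2 fold change -1.29, SE 0.41, adjusted p 0.0155 by limma). Without replicate 2 of low-glucose MDA-MB-468 this call was lost (adjusted p 0.0547 by limma), and over the alternatives the value ran from -1.44 to -0.84. In MDA-MB-231 CXCL1 had 23.6, 28.4, 24.6 and 24.7 normalized reads in low glucose and 19.5, 25.2, 33.4 and 30.4 in high glucose, which overlap (log2 fold change 0.07, adjusted p 0.875 by limma). CXCL3 fell in both lines, from 15.2 ± 3.93 to 5.16 ± 1.87 normalized reads in MDA-MB-231 (SD, n = 4), and from 7.45 ± 1.16 to single values of 2.92, 1.09, 1.14 and 0.843 in MDA-MB-468, with log2 fold changes of -1.42 (SE 0.38, adjusted p 0.0161 by limma) and -1.81 (SE 0.52, adjusted p 0.00835 by limma). The alternatives placed the second of these between -2.32 and -0.94. In both lines CXCL3 reached the expression minimum in low glucose alone, as CXCL1 did in MDA-MB-468. Their being tested already required a high value there. The 4 high-glucose MDA-MB-468 libraries of CXCL3 held 6 reads together, each at or under the floor of 3 reads, so the size of that fall is uncertain. The MDA-MB-231 call of CXCL3 was lost without replicate 2 of low glucose (adjusted p 0.0624 by limma). CXCL2 had 19.4 ± 3.66 and 19.6 ± 2.87 normalized reads in the low- and high-glucose groups of MDA-MB-231 and was, in MDA-MB-468, too low to be tested.

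IL6, the inflammatory interleukin, had 25.3, 30.5, 20.4 and 25.7 normalized reads in high-glucose MDA-MB-231, inside the wide range of the low-glucose libraries given above (log2 fold change -0.39, 95% interval -0.99 to 0.21, adjusted p 0.418 by limma). IL1A and CSF2 were not called in MDA-MB-231, with log2 fold changes of about -0.10 each. CCL2, CCL20, IL1B and TNF were tested in neither line, and CXCL2, IL6, IL1A, CSF2 and PTGS2 were not tested in MDA-MB-468. The highest level of an untested gene was 0.227 CPM (read counts scaled to a common library total) in MDA-MB-231 and 0.452 CPM in MDA-MB-468. In these libraries 3 reads equal 0.123 to 0.213 CPM. The genes fell under the filter, so a change in them was not tested and no fold is given.

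The subunits moved unequally in MDA-MB-468, where 3 of 5 fell (background 22.7%) and 1 rose (background 24.9%). None of the 5 passed the threshold in MDA-MB-231 (background 15.1%). NFKB2 (ENSG00000077150, chromosome 10, 104153867 to 104162281 on GRCh37), the precursor subunit of the noncanonical route, had 891, 835, 863 and 888 normalized reads in low-glucose and 367, 412, 383 and 384 in high-glucose MDA-MB-468. The groups lay far apart, with a log2 fold change of -1.17 (SE 0.05, adjusted p 4.09e-11 by limma). Its partner RELB (ENSG00000104856, chromosome 19, 45504719 to 45541450 on GRCh37) had 306, 269, 249 and 252 normalized reads in low-glucose and 114, 151, 137 and 136 in high-glucose MDA-MB-468. Again every low-glucose library was the higher (log2 fold change -0.998, SE 0.10, adjusted p 3.23e-07 by limma). REL had 172, 154, 182 and 182 normalized reads in low glucose and 127, 163, 113 and 108 in high glucose, where replicate 2 overlapped the low-glucose range (log2 fold change -0.45, SE 0.12, adjusted p 0.00506 by limma). A joint fit of all 16 libraries did not call REL (adjusted p 0.0835 by limma).

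NFKB1, the precursor subunit of the canonical dimer, rose slightly in MDA-MB-468, from 575 ± 14.6 to 648 ± 34.9 normalized reads (SD, n = 4, log2 fold change 0.17, SE 0.05, adjusted p 0.00935 by limma). RELA, the main activating subunit, was not called in either line, with a log2 fold change of 0.05 (95% interval -0.03 to 0.13) in MDA-MB-231 and -0.06 (95% interval -0.13 to 0.01) in MDA-MB-468. In MDA-MB-231 the other subunits had log2 fold changes of 0.14 for NFKB2 (adjusted p 0.0645 by limma), 0.12 for RELB, -0.02 for NFKB1 and -0.20 for REL.

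**Figure D4:**
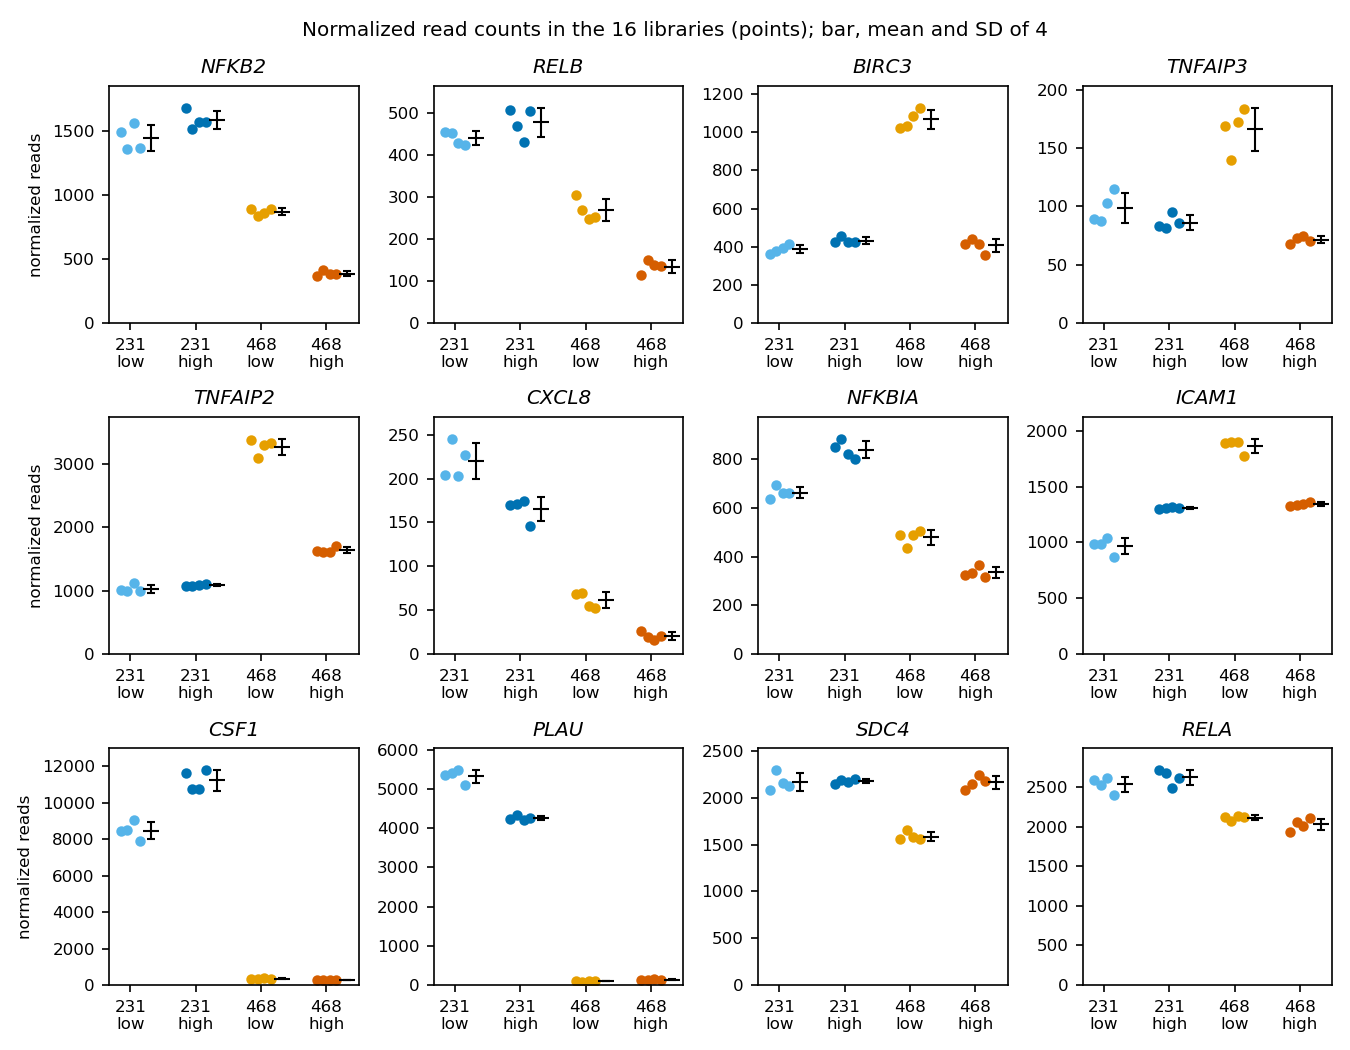
Normalized reads of 12 NF-kB genes in each of the 16 libraries (points), with the mean and SD of the 4 replicates as a bar beside them, for low and high glucose, MDA-MB-231 on the left of each panel and MDA-MB-468 on the right, on axes that start at 0. The high-glucose points of NFKB2, RELB, BIRC3, TNFAIP3 and TNFAIP2 fall well below the low-glucose points in MDA-MB-468, while those of MDA-MB-231 stay close together.

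Of the 8 IkB proteins and feedback regulators, 4 fell (background 22.7%) and 1 rose (background 24.9%) in MDA-MB-468. The share called there, 62.5%, was near the background of 47.6%. In MDA-MB-231 2 rose (background 5.71%), and the share called was 25% against a background of 15.1%. TNFAIP3 (ENSG00000118503, chromosome 6, 138188351 to 138204451 on GRCh37), a ubiquitin-editing enzyme that shuts off NF-kB signaling, had 168, 139, 172 and 183 normalized reads in low-glucose MDA-MB-468 and 68.1, 73.2, 74.4 and 69.96 in high glucose. The high-glucose libraries were tightly grouped and all lower (log2 fold change -1.20, SE 0.11, adjusted p 1.33e-07 by limma). In MDA-MB-231 it had 89.3, 87.1, 103 and 115 normalized reads in low and 82.7, 81.0, 94.7 and 85.6 in high glucose, which overlap (log2 fold change -0.19, SE 0.12, adjusted p 0.329 by limma). NFKBIA (ENSG00000100906, chromosome 14, 35870285 to 35873955 on GRCh37), the classical IkB gene and itself an NF-kB target, went opposite ways. It rose in MDA-MB-231 from 635, 693, 663 and 660.1 to 849, 885, 822 and 802 normalized reads and fell in MDA-MB-468 from 489.5, 436, 489 and 505 to 325, 334, 366 and 317. No glucose groups overlapped, with log2 fold changes of 0.34 (SE 0.05, adjusted p 7.6e-05 by limma) and -0.51 (SE 0.06, adjusted p 5.5e-06 by limma).

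NFKBIE, a further IkB gene, had 552, 537, 609 and 569.6 normalized reads in low-glucose and 694, 659.5, 628 and 669 in high-glucose MDA-MB-231. All high-glucose libraries were above the low-glucose ones (log2 fold change 0.23, SE 0.05, adjusted p 0.00728 by limma), and in MDA-MB-468 its log2 fold change was 0.10 (95% interval -0.06 to 0.26). TNIP1, a ubiquitin-binding partner of TNFAIP3, had 2194, 2256, 2088 and 2186 normalized reads in low-glucose and 1778, 1797, 1872 and 1913 in high-glucose MDA-MB-468. The fall was small but free of overlap (log2 fold change -0.25, SE 0.04, adjusted p 3.49e-05 by limma). ZC3H12A fell by 0.27 on the log2 scale in MDA-MB-468 (SE 0.06, adjusted p 0.00275 by limma), a call absent from the joint fit of all 16 libraries (adjusted p 0.0678 by limma). NFKBIZ, a nuclear IkB protein that assists transcription of secondary targets, rose from 647 ± 40.7 to 807 ± 14.0 normalized reads (SD, n = 4, log2 fold change 0.32, SE 0.05, adjusted p 4.98e-05 by limma). BCL3 and TNIP2 passed the threshold in neither line.

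Within the adaptor and survival group the largest fall in MDA-MB-468 was that of BIRC3. Among the tested genes of the 40, CXCL3 and CXCL8 fell more on the log2 scale. In MDA-MB-231 1 of the 8 adaptor and survival genes passed the threshold, near the background of 15.1%. In MDA-MB-468 5 of the 8 fell (background 22.7%) and 1 rose (background 24.9%). Without IRAK2, which reached the expression minimum in low glucose alone, 4 of 7 fell there and 1 rose. BIRC3 (ENSG00000023445, chromosome 11, 102188215 to 102210134 on GRCh37), an inhibitor of apoptosis and ubiquitin ligase, had 1022, 1034, 1084 and 1129 normalized reads in low glucose and 414, 440.2, 413 and 358 in high glucose. The log2 fold change was -1.39 (SE 0.06, adjusted p 4.09e-11 by limma). Its high-glucose level, 406 ± 34.5 normalized reads (SD, n = 4), stood beside 432 ± 16.9 in high-glucose MDA-MB-231, where the low-glucose libraries held 362, 378, 391 and 412 and the high-glucose ones 424, 458, 423 and 424. These do not overlap, and the change did not pass the threshold (log2 fold change 0.16, SE 0.06, adjusted p 0.0707 by limma). BIRC2, its neighbor on chromosome 11, had 1644, 1618, 1676 and 1575 normalized reads in low-glucose and 1351, 1249.7, 1364 and 1296 in high-glucose MDA-MB-468. The groups did not overlap, with a smaller log2 fold change of -0.31 (SE 0.04, adjusted p 5.87e-06 by limma).

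TNFAIP2 (ENSG00000185215, chromosome 14, 103587813 to 103603776 on GRCh37), a gene induced by tumor necrosis factor, had 3376, 3086, 3287 and 3325 normalized reads in low-glucose and 1624, 1612, 1602 and 1708 in high-glucose MDA-MB-468. All 4 high-glucose libraries were far below (log2 fold change -0.997, SE 0.04, adjusted p 6.34e-12 by limma), and in MDA-MB-231 its log2 fold change was 0.08 (95% interval -0.02 to 0.17). IER3 fell by 0.26 on the log2 scale in MDA-MB-468 (SE 0.03, adjusted p 6.72e-06 by limma) and had a log2 fold change of 0.00 (95% interval -0.05 to 0.06) in MDA-MB-231. IRAK2 fell from 10.6 ± 1.99 to 4.43 ± 1.47 normalized reads in MDA-MB-468 (SD, n = 4, log2 fold change -1.12, SE 0.39, adjusted p 0.0274 by limma). That call was lost without replicate 1, 2 or 4 of low glucose or replicate 1 or 3 of high glucose (adjusted p up to 0.0785 by limma), and over the alternatives the value ran from -1.25 to -0.73. MAP3K8 rose from 118 ± 7.98 to 159 ± 15.8 normalized reads (log2 fold change 0.43, SE 0.10, adjusted p 0.00179 by limma). TRAF1, a receptor adaptor, rose in MDA-MB-231 from 507, 489, 482 and 446 to 577, 563, 583 and 598 normalized reads. The groups were free of overlap (log2 fold change 0.27, SE 0.05, adjusted p 0.00179 by limma), and the joint fit of all 16 libraries did not call it (adjusted p 0.314 by limma). TNFAIP8 passed the threshold in neither line.

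In the adhesion and protease group 2 of 5 tested genes fell (background 22.7%) and 2 rose (background 24.9%) in MDA-MB-468. In MDA-MB-231 1 of 6 fell (background 9.37%) and 1 rose (background 5.71%). ICAM1 (ENSG00000090339, chromosome 19, 10381769 to 10397291 on GRCh37), a leukocyte adhesion molecule, had 986, 984, 1039 and 867 normalized reads in low-glucose and 1295, 1309.5, 1322 and 1309.7 in high-glucose MDA-MB-231. In MDA-MB-468 it had 1894, 1899, 1903 and 1770.4 in low glucose and 1322, 1335, 1347 and 1366 in high glucose. Each line's groups were apart but in opposite order, with log2 fold changes of 0.44 (SE 0.05, adjusted p 8.14e-06 by limma) and -0.47 (SE 0.04, adjusted p 1.85e-08 by limma). The high-glucose levels were 1309 ± 10.9 in MDA-MB-231 against 1342 ± 18.5 in MDA-MB-468 (SD, n = 4).

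PLAU (ENSG00000122861, chromosome 10, 75668935 to 75677254 on GRCh37) showed the reverse split. It fell in MDA-MB-231 from 5349.7, 5398, 5471 and 5087 to 4239.5, 4344, 4208 and 4248 normalized reads and rose in MDA-MB-468 from 102, 88.5, 103 and 101 to 134, 126, 149.9 and 133. The groups did not overlap in either line, with log2 fold changes of -0.32 (SE 0.03, adjusted p 1.07e-06 by limma) and 0.45 (SE 0.10, adjusted p 0.00133 by limma). PLAUR, its receptor, fell by 0.23 in MDA-MB-468 on the log2 scale (SE 0.06, adjusted p 0.0051 by limma) and was not called in MDA-MB-231. SDC4 (ENSG00000124145, chromosome 20, 43953928 to 43977064 on GRCh37), a heparan sulfate proteoglycan, had 1559, 1651, 1576 and 1557 normalized reads in low-glucose and 2083, 2144, 2243 and 2183 in high-glucose MDA-MB-468. All high-glucose libraries were higher (log2 fold change 0.45, SE 0.04, adjusted p 3.43e-08 by limma), and in MDA-MB-231 the log2 fold change was 0.01 (95% interval -0.07 to 0.08). CD83 passed the threshold in neither line, and PTGS2 had a log2 fold change of -0.20 (adjusted p 0.0814 by limma) in MDA-MB-231.

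The question whether the lines responded differently was put to the interaction contrast, the log2 fold change in MDA-MB-468 minus that in MDA-MB-231. Of 36 NF-kB genes tested, 22 differed between the lines (background 30.9% of 17115 genes). In 15 the response of MDA-MB-468 was the lower (background 13.9%) and in 7 it was the higher (background 17%), and the median difference was -0.26 against 0.00 over all genes. CXCL2, IL6, IL1A, CSF2 and PTGS2 entered through MDA-MB-231 alone and were too low in MDA-MB-468 for a response to be measured. Of these, CXCL2 is counted among the 22 and the 15, and the others were not called. BIRC3 had a difference of -1.56 (SE 0.08, adjusted p 1.35e-09 by limma), NFKB2 of -1.31 (SE 0.07, adjusted p 1.28e-09 by limma), TNFAIP2 of -1.08 (SE 0.06, adjusted p 1.08e-09 by limma) and ICAM1 of -0.91 (SE 0.06, adjusted p 1.32e-08 by limma). CXCL1 had a difference of -1.37 (SE 0.36, adjusted p 0.00833 by limma, from -1.53 to -0.91 over the alternatives). The positive end held PLAU at 0.78 (SE 0.08, adjusted p 8.3e-07 by limma), MAP3K8 at 0.65 (SE 0.23, adjusted p 0.0431 by limma) and SDC4 at 0.44 (SE 0.05, adjusted p 1.52e-06 by limma). CXCL8 fell in both lines, more steeply in MDA-MB-468 (difference -1.12, SE 0.20, adjusted p 0.000319 by limma), whereas the fall of CXCL3 did not differ beyond its error (difference -0.39, 95% interval -1.26 to 0.48). CXCL2 had a difference of -1.38 (SE 0.45, adjusted p 0.0264 by limma), but its MDA-MB-468 libraries held 10 reads in low glucose and 1 read in high glucose, at or under the floor, and no fold is given for that line. Over 27 alternatives that value ran from -2.91 to -0.47 and the call was lost in 8, the call of MAP3K8 in 12 and that of TNFAIP8 (difference 0.34) in 11, with the libraries named in the account of the processing alternatives.

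By their calls in each line, 3 genes (CSF1, NFKBIA and ICAM1) rose in MDA-MB-231 against fell in MDA-MB-468, 1 (PLAU) did the opposite and 2 (CXCL3 and CXCL8) fell in both. A further 13 genes fell and 4 rose in MDA-MB-468 without a call in MDA-MB-231, and 3 were called in MDA-MB-231 without a call in MDA-MB-468. CXCL3 in both lines, and CXCL1 and IRAK2 in MDA-MB-468, reached the expression minimum in low glucose alone. Their being tested already required a high value there, and they are included in these tallies. No NF-kB gene rose in both lines. Over all genes tested, 5.71% rose and 9.37% fell in MDA-MB-231, and 24.9% rose and 22.7% fell in MDA-MB-468. The share of all genes with each pair of calls was not counted, so these tallies describe the list only. The promoter decamer was present in 6 of 15 windows of genes that fell in MDA-MB-468, in 4 of 5 of those that rose, in 1 of 6 of those not called and in 3 of 8 of those not tested. The windows of genes that fell include those of CXCL1, CXCL3 and IRAK2.

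Genes that act upstream of NF-kB were described from a separate list of 63, of which 59 were found. In MDA-MB-468, 32 of 55 tested passed the threshold, 15 higher and 17 lower (58.2% called, near the background of 47.6%), with a median log2 fold change of 0.01, so these genes had no common direction. MAP3K14, the NF-kB-inducing kinase of the noncanonical route, fell from 243 to 118 normalized reads (log2 fold change -1.04, SE 0.08, adjusted p 4.56e-08 by limma), alongside the falls of NFKB2 and RELB above. The death receptor gene TNFRSF21 fell by 0.34 (SE 0.03, adjusted p 2.11e-07 by limma) and the kinase adaptor TAB3 fell by 0.40 (SE 0.05, adjusted p 6.1e-06 by limma), both on the log2 scale. The interleukin-1 receptor gene IL1R1 rose by 1.36 (SE 0.11, adjusted p 4.6e-08 by limma), the receptor gene TNFRSF11A by 0.93 (SE 0.10, adjusted p 6.41e-07 by limma) and COMMD1, which promotes RELA turnover, by 0.73 (SE 0.09, adjusted p 8e-06 by limma). In MDA-MB-231, 12 of 58 tested passed the threshold, 7 higher and 5 lower (20.7%, background 15.1%). RBCK1, a subunit of the linear ubiquitin ligase, rose by 0.26 (SE 0.04, adjusted p 6.63e-05 by limma), the noncanonical receptor gene LTBR by 0.16 (SE 0.04, adjusted p 0.00998 by limma) and the Toll-like receptor gene TLR6 by 0.25 (SE 0.07, adjusted p 0.0214 by limma). TNFRSF21 fell by 0.25 (SE 0.03, adjusted p 1.86e-05 by limma) and the paracaspase gene MALT1 fell by 0.25 (SE 0.06, adjusted p 0.00488 by limma). MAP3K14 was not called in MDA-MB-231 (log2 fold change 0.14, adjusted p 0.116 by limma). The interaction contrast called 22 of 58 of these upstream genes (37.9%, background 30.9%), and the line comparison in low glucose called 52 of 58 (89.7%, background 85.4%), both near the background.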

How the data were processed

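RNA was sequenced from 16 samples on an Illumina HiSeq per the labels. The aligner, the counting program, its handling of strand and the annotation used for these cell-line libraries are not given in the sources used here, and the submitters' processing notes list hg38 and edgeR. Gene positions in the text come from the reference annotation on GRCh37 and promoter windows from RefSeq on GRCh38.p14. The deposited values are a signal per gene: the authors scaled whole read counts by 1 factor per library, and 100% of values came back as whole reads at a tolerance of 0.001. Recovered reads ran from 14094597 to 24425916 per library, and replicate pairs differed beyond counting error (chi-square per gene 2.02 to 5.20 over genes with at least 20 reads, where counting error alone gives about 1).

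The groups come from the sample labels. The NF-kB genes, their roles, the upstream list and the markers were chosen with earlier results of these data known. Symbols were matched to 17647 of the 18332 Ensembl IDs with a GENCODE annotation on GRCh37, and TPM used a transcript length for 17418 of them. A gene entered a fit when 2 or more of its samples reached 0.5 CPM, and was tested with limma 3.58.1 in R 4.3.3 (lmFit, eBayes with trend, two-sided) on log2(value + 1), and p-values were adjusted by Benjamini-Hochberg over all genes tested. Fold changes are on that log2(value + 1) scale, which understates changes of low genes. Each line was fitted on its 8 samples, and the interaction and line contrasts on all 16. Floors of 3 reads cover counting error only.

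Values per sample are given for CXCL1, CXCL8, IL6, NFKBIA, TNFAIP3, ICAM1 and PLAU whatever they do. They are also given for up to 3 called genes per role and line with the smallest adjusted p and at least 1 CPM. For the interaction and line contrasts the rule takes the 3 called genes with the largest difference in each direction, and for the upstream list the 3 with the smallest adjusted p in each direction and line, of which 1 gene is not reported here. Other genes named with values, such as PTGS2, CSF2, CXCL3, NFKB1, NFKBIZ, IRAK2 and IER3, are part of the account of all 40. TNFAIP2 and NFKB2 in the interaction were named after their values were seen.

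The alternatives were pseudocounts of 0.5 and 5, no filter and a filter of 1 CPM in 4 samples, TMM and quantile scaling, edgeR 4.0.16 (quasi-likelihood) and DESeq2 1.42.0 on the recovered reads, the replicate number as a block, a loess correction for transcript length (span 0.3) with and without the block, a joint fit of all 16 samples, and leaving out each replicate in turn. In simulated tables holding 200 genes with a log2 fold change of 1, limma found 200 of the 200 for MDA-MB-231 (6 false calls, 14884 genes) and 200 for MDA-MB-468 (5 false calls, 15757 genes). It found 186 for the interaction (11 false calls) and 188 for the line contrast (9 false calls), each over 17115 genes. The changed genes were drawn from those with a mean of at least 5 CPM, and all genes had the same dispersion. The recovery therefore does not describe genes under that level or smaller changes.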

Additional observations from a re-analysis of the deposited data

Results flagged for a closer look

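Among the 134 groups of 4 libraries examined, 8 held a library far from the other 3 by Dixon's ratio, its gap divided by the range of the group, above its 95% critical value. Chance gives about 1 in 20 such groups. CXCL3 had 2.92 normalized reads in replicate 1 of high-glucose MDA-MB-468 (ratio 0.855), above the others. CXCL8 had 146 in replicate 4 of high-glucose MDA-MB-231 (ratio 0.851), below the others. In low-glucose MDA-MB-468, CSF1 was low in replicate 2 at 303 (ratio 0.861), PLAU was low in replicate 2 at 88.5 (ratio 0.880), TRAF1 was high in replicate 4 at 31.4 (ratio 0.880), ICAM1 was low in replicate 4 at 1770.4 (ratio 0.934), and IER3 was low in replicate 3 at 2843 (ratio 0.889). BIRC3 was high in replicate 2 of high-glucose MDA-MB-231 at 458 (ratio 0.953).

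The glucose response of 22 NF-kB genes differed between the lines by limma's interaction contrast. The differences of log2 fold change, MDA-MB-468 minus MDA-MB-231, were -1.37 for CXCL1, -1.38 for CXCL2, -1.12 for CXCL8, 0.33 for LIF and -0.69 for CSF1 among the cytokines. The CXCL2 call was lost in 8 of 27 alternatives, its value ran from -2.91 to -0.47, and its MDA-MB-468 groups held 10 reads and 1 read, at or under the floor of 3 reads per library. They were 0.19 for NFKB1, -1.31 for NFKB2 and -1.11 for RELB among the subunits, and -0.86 for NFKBIA, 0.38 for NFKBIZ, -1.01 for TNFAIP3 and -0.29 for TNIP1 among the inhibitors. Among adaptors and survival factors they were -1.26 for IRAK2, 0.65 for MAP3K8, -0.30 for BIRC2, -1.56 for BIRC3, -0.26 for IER3, 0.34 for TNFAIP8 and -1.08 for TNFAIP2. The call of MAP3K8 was lost in 12 of 27 alternatives and that of TNFAIP8 in 11 of 27. ICAM1 had -0.91, SDC4 0.44 and PLAU 0.78.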

How the results depend on the processing

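The number of NF-kB genes past the threshold stayed within 1.5 times the reported number under each alternative run. It was 7 to 11 in MDA-MB-231, 20 to 26 in MDA-MB-468, 19 to 22 for the interaction and 33 to 38 between the lines in low glucose. Leaving out a replicate gave 8 to 11, 21 to 24, 19 to 22 and, each time, 35. Of the genes called, 6 of 9 in MDA-MB-231, 19 of 23 in MDA-MB-468, 19 of 22 in the interaction and 35 of 35 between lines were called in every alternative that tested them. A replicate block in the limma fits gave 9, 23, 22 and 35 calls. Samples with the same number, each taken relative to its group mean, correlated by -0.04 to -0.01 in MDA-MB-231 and 0.02 to 0.03 in MDA-MB-468 across genes. Values this small show no pairing common to many genes, but cannot exclude a shared batch that touches few genes. Values that turned direction were not called: the log2 fold change of CXCL1 in MDA-MB-231, -0.033 to 0.22 over the replicates left out, was -0.033 without high glucose replicate 3 (limma adjusted p 0.953), and the interaction of IL6 was 0.015 with a pseudocount of 5 (limma adjusted p 0.982). The cause was not tested. The interaction call of CXCL2 was lost with a pseudocount of 5 (-0.47), quantile scaling (-0.82), DESeq2 (-2.91), and without replicate 1 of either MDA-MB-231 group, low replicate 2 or 3 or high replicate 4 of MDA-MB-468 (adjusted p up to 0.146 over these). That of MAP3K8 was lost with DESeq2 and without 11 of the 16 libraries in turn (MDA-MB-231 low replicates 2 and 3 and high replicates 1, 2 and 4, MDA-MB-468 low replicates 1, 2 and 4 and high replicates 1, 3 and 4, adjusted p up to 0.0849), and that of TNFAIP8 with quantile scaling and without 10 of the 16 (MDA-MB-231 low replicates 2, 3 and 4 and high replicates 1 and 3, MDA-MB-468 low replicates 1 and 2 and high replicates 1, 3 and 4, adjusted p up to 0.0744). IRAK2 in MDA-MB-468 was also lost with quantile scaling and DESeq2 (adjusted p 0.0592 and 0.0633). Depth limits CXCL1, CXCL2, CXCL3, IL6 and IRAK2 in MDA-MB-468, which had at most 50 reads over the 4 libraries of a group.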
